A study of Oryza sativa with 9 samples.

Results

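Heterozygous f5-i/j spikelets were compared with homozygous f5-i/i spikelets over every transcript in the authors' deposited table for this pair of genotypes. The table held 480 transcripts of 427 loci, out of 832 transcripts in any of the 3 deposited tables of the series. All transcripts of the table were taken, and the ratio of each was recomputed from its 2 deposited means. The plants were BC14F2 rice (Oryza sativa), the product of many backcrosses and a selfing, and they segregated at f5, which makes hybrids of rice subspecies male sterile. The 3 genotypes were sampled with 3 samples each: the heterozygote f5-i/j, and the homozygotes f5-i/i and f5-j/j. No other allele or treatment is named for any group, and the labels leave unsaid whether separate plants gave the samples of a genotype. PolyA RNA of spikelets, the floral units of a rice panicle, was sequenced on an Illumina instrument.

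The values are the authors' means per genotype, whose unit no source used here gives. No value of a single sample was analysed, so no mean has an SD, the read depth is unknown, and no difference could be set against the spread between replicates or given a p-value. The authors had kept transcripts whose probability in their deposited table reached 0.8, and every transcript named as higher or lower here had passed that filter. A mean of 0.01 was the lowest value in the table and was read as a transcript listed at 0, so no fold is given against it. In whole spikelets, fewer cells of a type and less RNA per cell cannot be told apart.

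Spikelets enclose stamens and pistil between green hulls, and the hulls photosynthesise. Light-harvesting proteins bind chlorophyll around photosystems I and II and pass the captured energy to them, and their nuclear genes follow light and the daily clock. Heat shock factors are transcription factors that switch on chaperones, proteins that keep others folded, and chaperones are also made without heat during growth and pollen formation. Hybrid male sterility leaves the pollen of a heterozygote partly or wholly non-functional, while either homozygote can be fertile.

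Of the 480 transcripts, 256 were higher in f5-i/j (53.3% of those listed) and 224 were lower (46.7%). Among transcripts whose probability in the authors' deposited table reached 0.9 the balance turned, with 49 higher and 63 lower (43.8% higher). Only 17 of those 112 transcripts were above 0.01 in both genotypes. The number of transcripts the authors tested was not analysed here, so these shares are the background for the groups below, not a rate of calls among all genes. The f5-i/i mean was 0.01 for 116 of the higher transcripts, and the f5-i/j mean was 0.01 for 112 of the lower ones. Among the transcripts above that value in both genotypes, the median fold was 5.82 for the 140 higher in f5-i/j and 10.4 for the 112 lower in it. The authors' means of the listed transcripts summed to 12910 in f5-i/j, against 12039 in f5-i/i.

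The filter acted differently along the range of abundance. Among transcripts whose larger mean was below 5, the smallest fold listed was 102, and 92 of 94 had a mean of 0.01 in 1 genotype. With the larger mean between 20 and 50 the smallest fold was 3.52, and at 100 or more it was 3.005. Small changes of weakly expressed transcripts were therefore not in the list. The 50 transcripts with a larger mean of at least 100 were 33 higher and 17 lower in f5-i/j. Of those 33, 15 encoded photosystem, antenna or pigment synthesis proteins, and of those 17, 7 were in the heat shock protein and co-chaperone group.

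**Figure D1:**
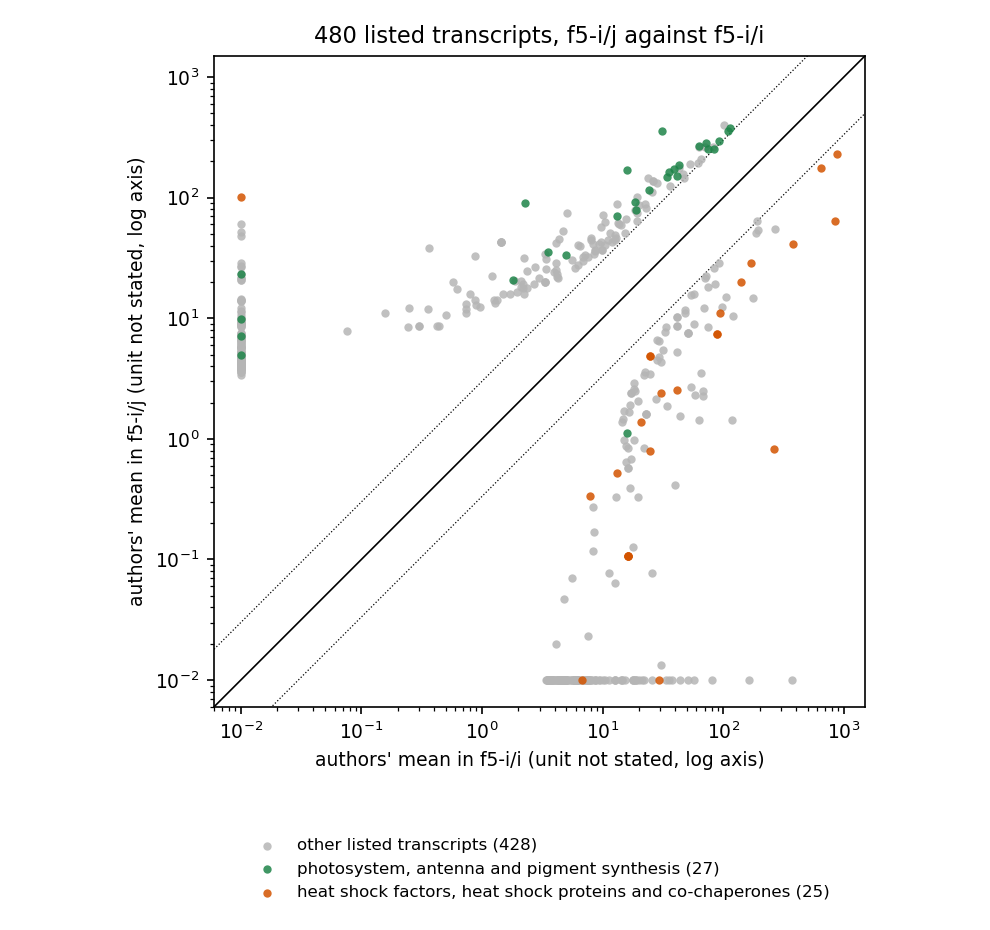
Authors' mean in f5-i/j (vertical) against the authors' mean in f5-i/i (horizontal) for each of the 480 listed transcripts, on log axes in a unit not stated. The solid line marks equal means and the dotted lines a 3-fold difference; points on the left and lower edges have a mean of 0.01 in 1 genotype, and the 27 photosystem, antenna and pigment transcripts lie above the line with 1 exception, while the 25 heat shock transcripts lie below it with 1 exception.

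Heat shock factors were lower in f5-i/j without exception among those listed. All 13 transcripts, from 5 loci, had a lower mean in the heterozygote, beside 46.7% lower among all listed transcripts. Their median fold was 23.5, with a range from 5.07 to 153, beside a median of 10.4 for all lower transcripts above 0.01. The largest mean of any of them in f5-i/j, 7.45, was below the smallest in f5-i/i, 7.91. Models of a locus often carried identical means, and the 13 transcripts held 8 distinct pairs of values.

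The most abundant were models 2 and 3 of LOC_Os10g28340, each with an authors' mean of 7.45 in f5-i/j, against 89.2 in f5-i/i (68.2 for f5-j/j). Models 1 and 5 of that locus had 4.86 in f5-i/j, against 24.6 in f5-i/i (22.6 for f5-j/j), by the authors' means. LOC_Os04g48030.1 had an authors' mean of 2.52 in f5-i/j, against 41.2 in f5-i/i (23.9 for f5-j/j). Both of these loci had f5-j/j means closer to f5-i/i than to f5-i/j, as had 49 of the 77 lower transcripts with all 3 means known and above 0.01. Such means are known only through another listed comparison, which favours an f5-j/j mean apart from f5-i/j or f5-i/i. The nearness is therefore given as a description and not as a result.

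LOC_Os03g53340 matches the rice gene named HSFA2A in RefSeq (assembly ASM3414082v1), of a class that in Arabidopsis sustains the heat response. Its 5 listed models summed to 1.22 in f5-i/j, against 90.2 in f5-i/i, by the authors' means, a difference of 74.0-fold. Folds of this size rest on f5-i/j means near 0. Model 4 carried 0.793 in f5-i/j, against 24.9 in f5-i/i (0.0267 for f5-j/j), so for this model both other genotypes were under the f5-i/i mean. The f5-j/j means of its other models were not analysed here. LOC_Os08g43334, which matches HSFB2B in RefSeq, had an authors' mean of 1.37 in f5-i/j for model 2, against 21.0 in f5-i/i (34.6 for f5-j/j). An f5-j/j mean is known only for transcripts also listed in another deposited table, 318 of the 480. Those tables share the f5-i/j or f5-i/i samples with this comparison, and the values are set beside it as a description only.

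Listed chaperones and co-chaperones went the same way with 1 exception. Of 12 transcripts from 9 loci, 11 were lower in f5-i/j, 2 of them at 0.01 there, and the median fold of the others was 8.57 (3.74 to 323). Small heat shock proteins of the HSP20 family, which hold unfolding proteins in a soluble state, were listed at 3 loci. LOC_Os03g16020.1 had an authors' mean of 28.9 in f5-i/j, against 171 in f5-i/i. LOC_Os06g14240.1 had 2.38 in f5-i/j, against 30.8 in f5-i/i (19.3 for f5-j/j), by the authors' means. Model 1 of LOC_Os02g52150 was at 0.01 in f5-i/j, with an authors' mean of 6.80 in f5-i/i (6.39 for f5-j/j). All HSP20 transcripts listed were lower in f5-i/j.

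DnaJ proteins deliver clients to HSP70 and stimulate its ATPase. The DnaJ B4 match LOC_Os05g48810.1 had an authors' mean of 20.0 in f5-i/j, against 142 in f5-i/i (122 for f5-j/j). The DnaJ A2 match LOC_Os04g46390.3 had 10.95 in f5-i/j, against 93.8 in f5-i/i, by the authors' means, but was at 0.01 in f5-j/j, unlike the other members with a known f5-j/j mean. A further transcript, LOC_Os02g52270.2, matched DnaJ B11 only weakly and was left out of the group; its authors' mean was 6.53 in f5-i/j, against 29.4 in f5-i/i. Matches to DnaJ B6 (LOC_Os02g54130.3) and DnaJ C3 (LOC_Os01g74580.2) were not listed and were slightly higher in f5-i/j. Their authors' means were 9.12 and 4.14 in f5-i/j, against 7.42 and 2.89 in f5-i/i (39.4 and 21.7 for f5-j/j).

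Partners of HSP90 were looked up after these values had been seen, because the HSP90 locus itself, LOC_Os08g39140 (HSP81-1 in RefSeq, annotated as HtpG in the table), had models in both directions. Its 3 listed models summed to 330.3 in f5-i/j, against 1151 in f5-i/i, by the authors' means, 3.48-fold lower in the heterozygote. Stress-induced-phosphoprotein 1, which links HSP70 to HSP90, had 4 listed transcripts from 2 loci and all were lower. LOC_Os06g06490.1 had an authors' mean of 12.3 in f5-i/j, against 97.6 in f5-i/i (89.6 for f5-j/j). Model 2 of the locus had 2.29 in f5-i/j, against 68.1 in f5-i/i (64.8 for f5-j/j), and model 3 had 0.393 in f5-i/j, against 17.0 in f5-i/i (15.5 for f5-j/j), by the authors' means. At the other locus, LOC_Os04g45480.1 had an authors' mean of 10.2 in f5-i/j, against 41.3 in f5-i/i.

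The prolyl isomerase FK506-binding protein 4/5, another HSP90 partner, had LOC_Os08g41390.1 at 0.01 in f5-i/j, with an authors' mean of 18.0 in f5-i/i (18.2 for f5-j/j). The match to cytosolic prostaglandin-E synthase, the p23 co-chaperone, went the other way: LOC_Os03g26460.2 had an authors' mean of 7.18 in f5-i/j, against 0.01 in f5-i/i.

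**Figure D2:**
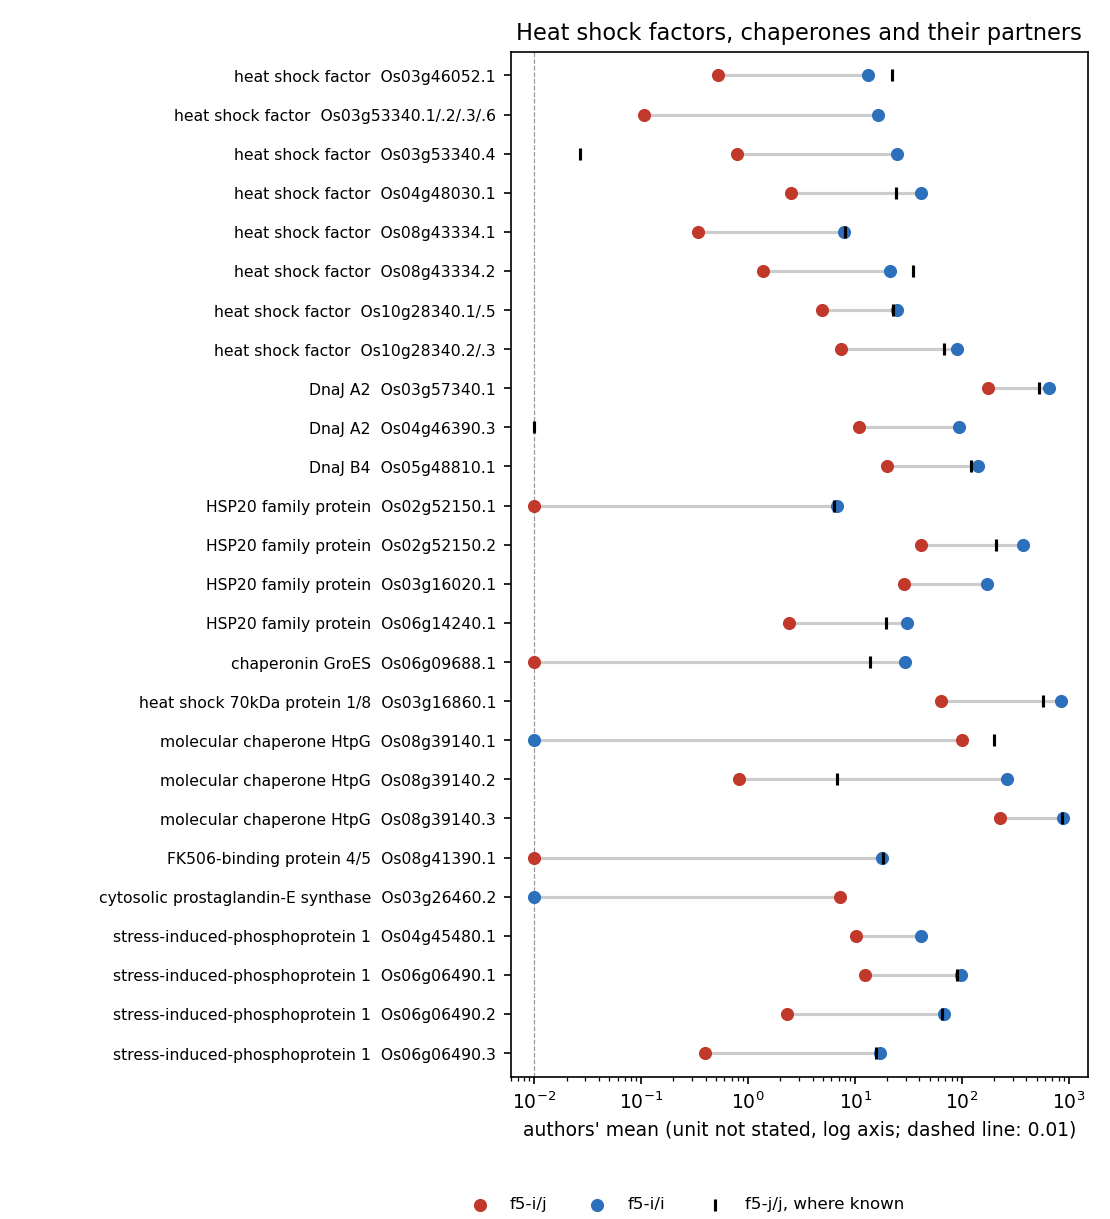
Authors' means in f5-i/j (red) and f5-i/i (blue), and in f5-j/j (black bar) where known, on a log axis in a unit not stated, for heat shock factors, chaperones and HSP90 partners; models with identical means share a row. The red point lies left of the blue in every row except HtpG model 1 and the prostaglandin-E synthase match, and dashes mark 0.01.

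Proteins of the photosystems and their antennae formed the largest block in the other direction. Of 20 transcripts from 17 loci, 19 were higher in f5-i/j (95%), beside 53.3% of all listed transcripts. The median fold was 4.26 and the range 3.005 to 39.8, and 15 of the 18 transcripts higher and above 0.01 in both genotypes had a fold below 5. They were among the most abundant listed transcripts in the heterozygote, with 14 of the 35 listed f5-i/j means of at least 100.

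Antenna proteins of photosystem II were listed for LHCB1, LHCB2, LHCB3, LHCB5 and LHCB6. The LHCB1 transcript LOC_Os09g17740.1 had an authors' mean of 377 in f5-i/j, against 113 in f5-i/i (388 for f5-j/j). LHCB3 and LHCB6, which join the outer antenna to the core, had authors' means of 254 and 254 in f5-i/j (LOC_Os07g37550.1 and LOC_Os04g38410.1), against 84.5 and 74.4 in f5-i/i. Model 2 of the LHCB2 locus LOC_Os03g39610 had 282 in f5-i/j, against 71.9 in f5-i/i (288 for f5-j/j), by the authors' means. Models 1 and 4 of the LHCB5 locus LOC_Os11g13890 had 163 and 151 in f5-i/j, against 35.7 and 41.6 in f5-i/i, by the authors' means. For LHCB1 and LHCB2 model 2 the f5-j/j mean lay beside that of the heterozygote, while LHCB2 model 1 had authors' means of 171 in f5-i/j, against 15.8 in f5-i/i (64.8 for f5-j/j). These f5-j/j means are known because the transcripts were also listed between the homozygotes, which favours a mean apart from f5-i/i.

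The antenna of photosystem I was represented by LHCA2, LHCA3 and LHCA4. LHCA4 (LOC_Os08g33820.1) had an authors' mean of 292 in f5-i/j, against 92.3 in f5-i/i, and LHCA3 (LOC_Os02g10390.1) had 91.7 in f5-i/j, against 18.6 in f5-i/i. Of the core subunits, subunit V (LOC_Os09g30340.1) had an authors' mean of 185 in f5-i/j, against 42.9 in f5-i/i, and PsaO (LOC_Os04g33830.1), which binds antenna proteins, had 174 in f5-i/j, against 38.9 in f5-i/i. Subunit X (LOC_Os07g05480.1) had 149 in f5-i/j, against 34.3 in f5-i/i, and subunit VI (LOC_Os05g48630.2) 78.8 in f5-i/j, against 19.1 in f5-i/i, by the authors' means. The core and antenna transcripts of photosystem I thus differed by similar folds, between 3.17 and 4.92, apart from LHCA2 and the second model of subunit XI.

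The oxygen-evolving enhancers shield the manganese cluster of photosystem II. Enhancer protein 1 (LOC_Os01g31690.1) had an authors' mean of 355 in f5-i/j, against 109 in f5-i/i. Enhancer protein 3 (LOC_Os07g36080.1) had 35.5 in f5-i/j, against 3.54 in f5-i/i (5.08 for f5-j/j), by the authors' means, so here the 2 homozygotes lay together and under the heterozygote. Ferredoxin, which takes electrons from photosystem I, had an authors' mean of 266 in f5-i/j, against 63.2 in f5-i/i for LOC_Os08g01380.1. The PsbW transcript LOC_Os01g56680.1 was outside the group because its match was weak; its authors' mean was 208 in f5-i/j, against 65.0 in f5-i/i.

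All 7 listed transcripts of chlorophyll and pigment synthesis, from 5 loci, were higher in f5-i/j, 3 of them with an f5-i/i mean of 0.01. Geranylgeranyl reductase supplies the phytol tail of chlorophyll. At LOC_Os02g51080.1 it had an authors' mean of 70.2 in f5-i/j, against 13.2 in f5-i/i (59.5 for f5-j/j), and at LOC_Os05g34700.2 it had 7.18 in f5-i/j with 0.01 in both homozygotes. Beta-carotene 3-hydroxylase, which makes xanthophylls, had an authors' mean of 33.7 in f5-i/j, against 4.97 in f5-i/i for LOC_Os10g38940.1. Protochlorophyllide reductase makes the chlorophyll precursor chlorophyllide in light. Model 1 of its locus LOC_Os04g58200 had an authors' mean of 354 in f5-i/j, against 31.1 in f5-i/i (121 for f5-j/j), and model 3 had 20.6 in f5-i/j, against 1.82 in f5-i/i (44.6 for f5-j/j), by the authors' means. A breakdown enzyme moved with the synthesis enzymes: pheophorbide a oxygenase (LOC_Os03g59090.2), looked up after the values were seen, had an authors' mean of 16.03 in f5-i/j, against 0.8 in f5-i/i.

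Other plastid functions were listed too, fewer in number. The small chain of Rubisco, the enzyme that fixes CO2, had authors' means of 59.7 and 64.0 in f5-i/j (LOC_Os12g19381.1 and LOC_Os12g17600.1), against 14.3 and 19.4 in f5-i/i. Reads of near-identical genes, which the Rubisco small chain, antenna and heat shock families contain, may have been shared out between loci, so the level of a single member is uncertain. The photosynthetic NADP-dependent glyceraldehyde-3-phosphate dehydrogenase LOC_Os04g38600.3 had an authors' mean of 44.6 in f5-i/j, against 8.06 in f5-i/i (34.6 for f5-j/j). A sigma factor, a subunit type that directs the plastid RNA polymerase to promoters, had LOC_Os05g50930.1 at an authors' mean of 7.32 in f5-i/j, against 0.01 in f5-i/i (9.77 for f5-j/j). The first enzyme of the plastid isoprenoid pathway, 1-deoxy-D-xylulose-5-phosphate synthase (LOC_Os05g33840.1), had an authors' mean of 34.4 in f5-i/j, against 8.54 in f5-i/i. Outside the plastid, hydroxymethylglutaryl-CoA reductase (LOC_Os08g40180.1) of the mevalonate pathway had 89.2 in f5-i/j, against 13.2 in f5-i/i (82.6 for f5-j/j), by the authors' means.

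**Figure D3:**
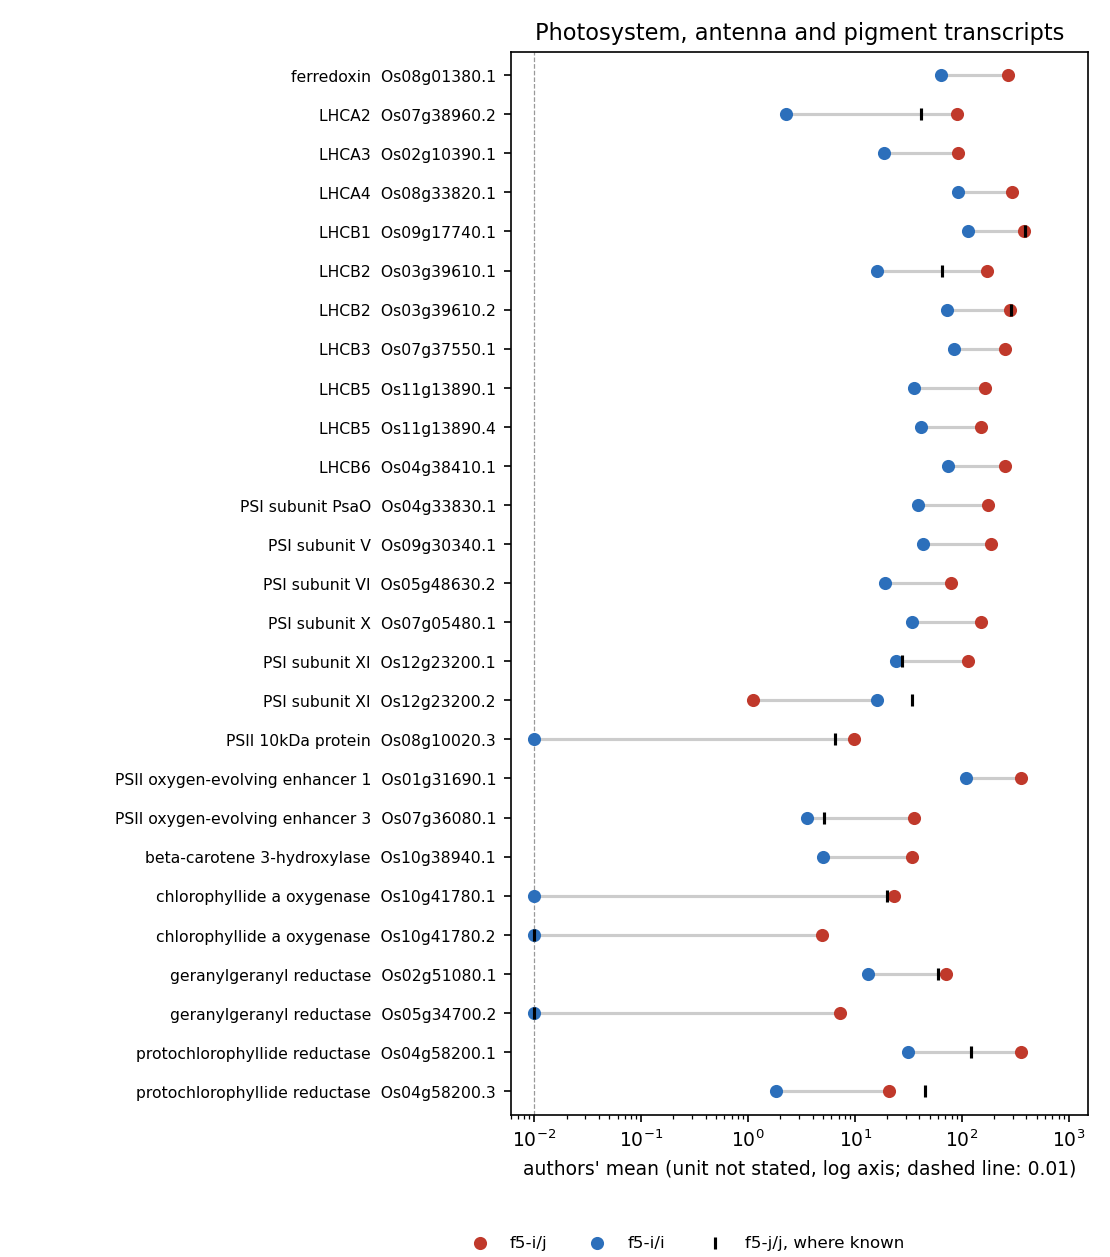
Authors' means in f5-i/j (red) and f5-i/i (blue), and in f5-j/j (black bar) where known, on a log axis in a unit not stated, for the 20 photosystem and antenna and the 7 pigment synthesis transcripts; LHCA and LHCB are antenna proteins of photosystems I and II. The red point lies right of the blue in every row except model 2 of photosystem I subunit XI, and the dashed line marks 0.01.

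Clock and light-signalling transcripts were listed in both directions. LHY, a morning-expressed repressor of the clock in Arabidopsis, had 4 models of LOC_Os08g06110 with the same means, 43.1 in f5-i/j, against 1.45 in f5-i/i (75.5 for f5-j/j), by the authors' means. Another LHY match, LOC_Os06g51260.1, was not listed and differed little, with authors' means of 13.55 in f5-i/j, against 14.1 in f5-i/i (97.56 for f5-j/j). FKF1, a blue-light receptor that in Arabidopsis acts in the afternoon on flowering time, had 2 models of LOC_Os11g34460 with authors' means of 2.38 in f5-i/j, against 17.3 in f5-i/i. A match to DOF5.5, the Arabidopsis cycling Dof factor, had 14.1 in f5-i/j, against 1.25 in f5-i/i (16.4 for f5-j/j) (LOC_Os01g15900.1), by the authors' means. A second DOF5.5 match, LOC_Os02g45200.2, was at 0.01 in the heterozygote and f5-j/j, with an authors' mean of 5.30 in f5-i/i. No source used here gives the hour at which each genotype was sampled.

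Sugar, starch and glycolysis transcripts were 11 higher and 4 lower in f5-i/j (73.3% higher). Granule-bound starch synthase, which makes amylose, had models 2 and 3 of LOC_Os07g22930 at an authors' mean of 137 in f5-i/j, against 26.2 in f5-i/i (95.8 for f5-j/j). Alpha-amylase LOC_Os01g51754.2 had an authors' mean of 13.2 in f5-i/j, against 0.73 in f5-i/i. Trehalose 6-phosphate synthase/phosphatase LOC_Os02g54820.3, whose product signals sugar status, had 9.30 in f5-i/j, against 0.01 in f5-i/i (4.98 for f5-j/j), by the authors' means. Fructose-bisphosphate aldolase LOC_Os11g07020.4 had an authors' mean of 51.4 in f5-i/j, against 15.3 in f5-i/i. Against these, the glycolytic enolase LOC_Os10g08550.5 was 4.95-fold lower, with authors' means of 54.6 in f5-i/j, against 270.2 in f5-i/i (299.6 for f5-j/j).

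Membrane transport held 6 higher and 2 lower transcripts. Solute carrier family 35 member E1, a family that in plants includes sugar-phosphate carriers of plastids, was matched by 2 transcripts. They were LOC_Os07g33954.1, with an authors' mean of 260.7 in f5-i/j, against 71.1 in f5-i/i (306.9 for f5-j/j), and LOC_Os07g33910.2, with 100.5 in f5-i/j, against 19.4 in f5-i/i (79.2 for f5-j/j), by the authors' means. A family 50 sugar transporter (LOC_Os02g19820.1; SWEET in plants, which export sugars from cells) had an authors' mean of 88.8 in f5-i/j, against 22.6 in f5-i/i (88.0 for f5-j/j). For these 3 carriers the f5-j/j mean was nearer to the heterozygote than to f5-i/i. The same held for 57 of the 63 higher transcripts with all 3 means known and above 0.01. The f5-j/j means of the carriers are known because they were also listed between the homozygotes, which favours a mean apart from f5-i/i. Myo-inositol-1-phosphate synthase LOC_Os03g09250.1, the first step of inositol synthesis and outside the groups, had 188 in f5-i/j, against 52.9 in f5-i/i (189 for f5-j/j), by the authors' means. A chloride channel match, LOC_Os10g08879.2, was at 0.01 in f5-i/j, with an authors' mean of 37.4 in f5-i/i (17.3 for f5-j/j).

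The word group of DNA-binding transcription factors, which leaves out heat shock factors and the hormone response factors below, had 7 higher and 9 lower transcripts, and 4 of the 7 were the LHY models. The other higher ones of the group were the DOF5.5 match already given, a homeobox-leucine zipper protein (LOC_Os02g43330.1), with authors' means of 12.5 in f5-i/j, against 0.963 in f5-i/i, and WRKY transcription factor 1 (LOC_Os02g08440.2), with 12.04 in f5-i/j, against 0.733 in f5-i/i. Among the lower ones, a match to MADS-box transcription enhancer factor 2A (LOC_Os10g39130.2) had an authors' mean of 5.43 in f5-i/j, against 31.8 in f5-i/i. Model 2 of another locus, LOC_Os02g49840, was lower in f5-i/j with a log2 ratio of -6.58. Model 4 of that locus, annotated as a plant MADS-box factor, was not listed, with 0.01 in f5-i/j and f5-i/i (4.64 for f5-j/j). The MYB transcript LOC_Os07g04700.6 had 0.02 in f5-i/j, against 4.14 in f5-i/i, by the authors' means. Homeobox-leucine zipper transcripts of 3 further loci were lower, so that family was listed both ways; the most abundant, LOC_Os08g19590.3, had an authors' mean of 0.973 in f5-i/j, against 15.0 in f5-i/i. Plant G-box-binding factors, which the words of the group missed, were also listed both ways: LOC_Os12g13170.1 had an authors' mean of 5.02 in f5-i/j, against 0.01 in f5-i/i (3.64 for f5-j/j), and LOC_Os07g10890.2 had 1.92 in f5-i/j, against 16.8 in f5-i/i (23.2 for f5-j/j).

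Hormone transcripts were 4 higher and 2 lower. A jasmonate ZIM-domain protein, a repressor of jasmonate responses, was LOC_Os10g25290.1, with an authors' mean of 42.9 in f5-i/j, against 9.61 in f5-i/i. An auxin-responsive IAA protein, also a repressor, was LOC_Os01g09450.1, with 8.76 in f5-i/j, against 0.01 in f5-i/i (8.46 for f5-j/j), by the authors' means. An auxin response factor, LOC_Os12g29520.4, was at 0.01 in f5-i/j, with an authors' mean of 4.94 in f5-i/i (21.5 for f5-j/j). Model 3 of that locus (LOC_Os12g29520.3), which was not listed, had authors' means of 7.99 in f5-i/j, against 7.05 in f5-i/i (0.01 for f5-j/j). The type-B response regulator LOC_Os01g74020.1, of the class that carries cytokinin signals, had authors' means of 0.33 in f5-i/j, against 12.8 in f5-i/i (0.117 for f5-j/j). A weaker match to the same class, LOC_Os06g24070.1, was higher, with authors' means of 36.4 in f5-i/j, against 8.66 in f5-i/i.

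Kinases, phosphatases and calcium signalling had 8 transcripts in each direction, but of different abundance. Of the 8 higher ones, 7 had an f5-i/i mean of 0.01 and f5-i/j means no larger than 9.03. The eighth, a glycogen synthase kinase 3 match (LOC_Os01g19150.3), of the family that includes brassinosteroid-signalling kinases, had an authors' mean of 41.2 in f5-i/j, against 9.29 in f5-i/i (39.5 for f5-j/j). Above 0.01 in both genotypes, 1 was higher and 6 were lower. The lower ones included SRK2 (LOC_Os12g39630.1), a kinase of abscisic acid and osmotic stress signalling, with authors' means of 8.44 in f5-i/j, against 74.8 in f5-i/i (8.01 for f5-j/j). A second SRK2 match, LOC_Os04g59450.3, was among the higher ones, with an authors' mean of 3.88 in f5-i/j, against 0.01 in f5-i/i. A catalytic subunit of the AMP-activated kinase, an energy sensor, was LOC_Os03g22050.4, with 12.05 in f5-i/j, against 68.7 in f5-i/i (14.5 for f5-j/j), by the authors' means. It too was listed in both directions, since LOC_Os01g18800.1 had 4.23 in f5-i/j, against 0.01 in f5-i/i (16.1 for f5-j/j), by the authors' means. For the 2 lower transcripts the f5-j/j mean was nearer to f5-i/j, as for 28 of the 77 lower transcripts with all 3 means known and above 0.01. These f5-j/j means too are known only through another listed comparison, which favours a mean apart from f5-i/j or f5-i/i.

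Ribosomal protein transcripts were 3 higher and 8 lower, and all 8 lower ones were at 0.01 in f5-i/j. Besides the most abundant of them, S26e (LOC_Os05g39960.3) had authors' means of 35.6 in f5-i/i (40.4 for f5-j/j), and L30e (LOC_Os01g16890.2) had 33.4 in f5-i/i with 0.01 in f5-j/j. L11e (LOC_Os02g14059.2) went the other way, with authors' means of 24.3 in f5-i/j, against 3.93 in f5-i/i (69.9 for f5-j/j). The 8 lower transcripts came from 8 loci, and none was a first model of its locus, nor was any of the 3 higher ones. The means of the other models of these loci were not analysed here, so the level of the whole gene is not known.

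Translation factors were 3 higher and 3 lower. A match to initiation factor 2C (LOC_Os04g47870.1), the Argonaute family of small-RNA effectors, had an authors' mean of 23.3 in f5-i/j, against 4.22 in f5-i/i. Prolyl-tRNA synthetase LOC_Os12g25710.4 had authors' means of 4.82 in f5-i/j, against 29.5 in f5-i/i (0.01 for f5-j/j). RNA processing and decay had 3 higher and 6 lower transcripts, the lower ones including a Dicer (LOC_Os08g42189.3, which cuts small-RNA precursors) at 0.01 in the heterozygote and f5-j/j, with an authors' mean of 7.72 in f5-i/i. An arginine/serine-rich splicing factor, LOC_Os02g03040.4, was at 0.01 in f5-i/j, with an authors' mean of 14.6 in f5-i/i (11.3 for f5-j/j).

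Ubiquitin, proteasome and protease transcripts were 6 higher and 8 lower. Ubiquitin C was listed in both directions: LOC_Os04g53620.1 had an authors' mean of 131 in f5-i/j, against 28.4 in f5-i/i (98.3 for f5-j/j), while LOC_Os06g46770.6 was at 0.01 in f5-i/j with 5.85 in f5-i/i. An unlisted model of the more abundant locus, LOC_Os04g53620.4, had authors' means of 3.67 in f5-i/j, against 5.80 in f5-i/i. A KDEL-tailed cysteine endopeptidase (LOC_Os04g55650.2), of a class found in dying plant cells, had authors' means of 21.7 in f5-i/j, against 70.9 in f5-i/i (88.7 for f5-j/j). Ubiquitin carboxyl-terminal hydrolase L3 (LOC_Os01g37000.1) had 1.53 in f5-i/j, against 43.5 in f5-i/i (26.8 for f5-j/j), by the authors' means. DCN1-like protein (LOC_Os06g12690.1), which attaches a ubiquitin-like protein to cullins, had authors' means of 11.1 in f5-i/j, against 48.0 in f5-i/i (49.0 for f5-j/j).

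Lipid transcripts split evenly, 5 higher and 5 lower. Phospholipid:diacylglycerol acyltransferase, which makes storage oil, was listed at 2 loci in opposite directions: LOC_Os06g50950.1 had an authors' mean of 30.2 in f5-i/j, against 5.54 in f5-i/i, and LOC_Os02g01980.1 had 63.5 in f5-i/j, against 191 in f5-i/i. Long-chain acyl-CoA synthetase, which activates fatty acids, had 2 transcripts at 0.01 in f5-i/i and 1 at 0.01 in f5-i/j. The most abundant in f5-i/j was LOC_Os11g04980.1, with an authors' mean of 12.1 in f5-i/j (5.89 for f5-j/j), while LOC_Os05g04170.4 reached 114 in f5-j/j beside 9.48 in f5-i/j.

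Oxidation and detoxification had 3 higher and 4 lower transcripts. Peroxidase LOC_Os05g04380.2 had an authors' mean of 21.7 in f5-i/j, against 0.01 in f5-i/i (15.9 for f5-j/j). The peroxide-scavenging ascorbate peroxidase LOC_Os07g49400.3 was at 0.01 in f5-i/j, with an authors' mean of 25.6 in f5-i/i (41.9 for f5-j/j). Thioredoxin LOC_Os02g53400.1 had 2.06 in f5-i/j, against 19.5 in f5-i/i (1.51 for f5-j/j), by the authors' means. One of the 3 higher members, LOC_Os03g63370.1, is annotated as aspartate-semialdehyde dehydrogenase, an enzyme of amino acid synthesis, with authors' means of 49.0 in f5-i/j, against 12.6 in f5-i/i (58.9 for f5-j/j). A match to respiratory burst oxidase at an e-value of 9e-29, LOC_Os04g36720.1, lay outside the group. Its authors' means were 37.1 in f5-i/j, against 8.69 in f5-i/i (34.7 for f5-j/j), and its function was not tested. Another match of that name, LOC_Os01g25820.2, was not listed, with authors' means of 25.84 in f5-i/j, against 31.7 in f5-i/i (4.13 for f5-j/j).

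Vesicle and nuclear traffic had 4 higher and 6 lower transcripts, among the lower coatomer subunit delta (LOC_Os05g24601.3), part of the coat of Golgi vesicles, with authors' means of 18.1 in f5-i/j, against 74.7 in f5-i/i (80.4 for f5-j/j). The signal recognition particle receptor (LOC_Os08g37444.6) had 15.1 in f5-i/j, against 104.9 in f5-i/i (0.01 for f5-j/j), by the authors' means. Subunits of mitochondrial complex I were listed once each way: the alpha subunit 12 match LOC_Os10g42840.2 had an authors' mean of 28.5 in f5-i/j, with 0.01 in both homozygotes, and the beta subunit 9 match LOC_Os06g50000.2 was at 0.01 in f5-i/j, with 51.1 in f5-i/i (41.8 for f5-j/j).

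Amino acid, nucleotide and cofactor transcripts were 4 higher and 1 lower. The 4 higher ones had an f5-i/i mean of 0.01 and authors' means in f5-i/j between 4.42, for cysteine synthase LOC_Os01g74650.2, and 6.76, for adenylate kinase LOC_Os08g01770.2. Defence and receptor transcripts were 3 higher and 1 lower, led by a match to the resistance protein RPM1 (LOC_Os02g36570.1), with authors' means of 41.0 in f5-i/j, against 8.34 in f5-i/i. Both transcripts of the chromatin and cell cycle group and both of the cytoskeleton group were lower, among them the cohesin subunit SCC1 (LOC_Os04g41110.2) at 0.01 in f5-i/j and f5-j/j with an authors' mean of 4.94 in f5-i/i. No listed transcript fell in the phenylpropanoid or the transposon group.

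**Figure D4:**
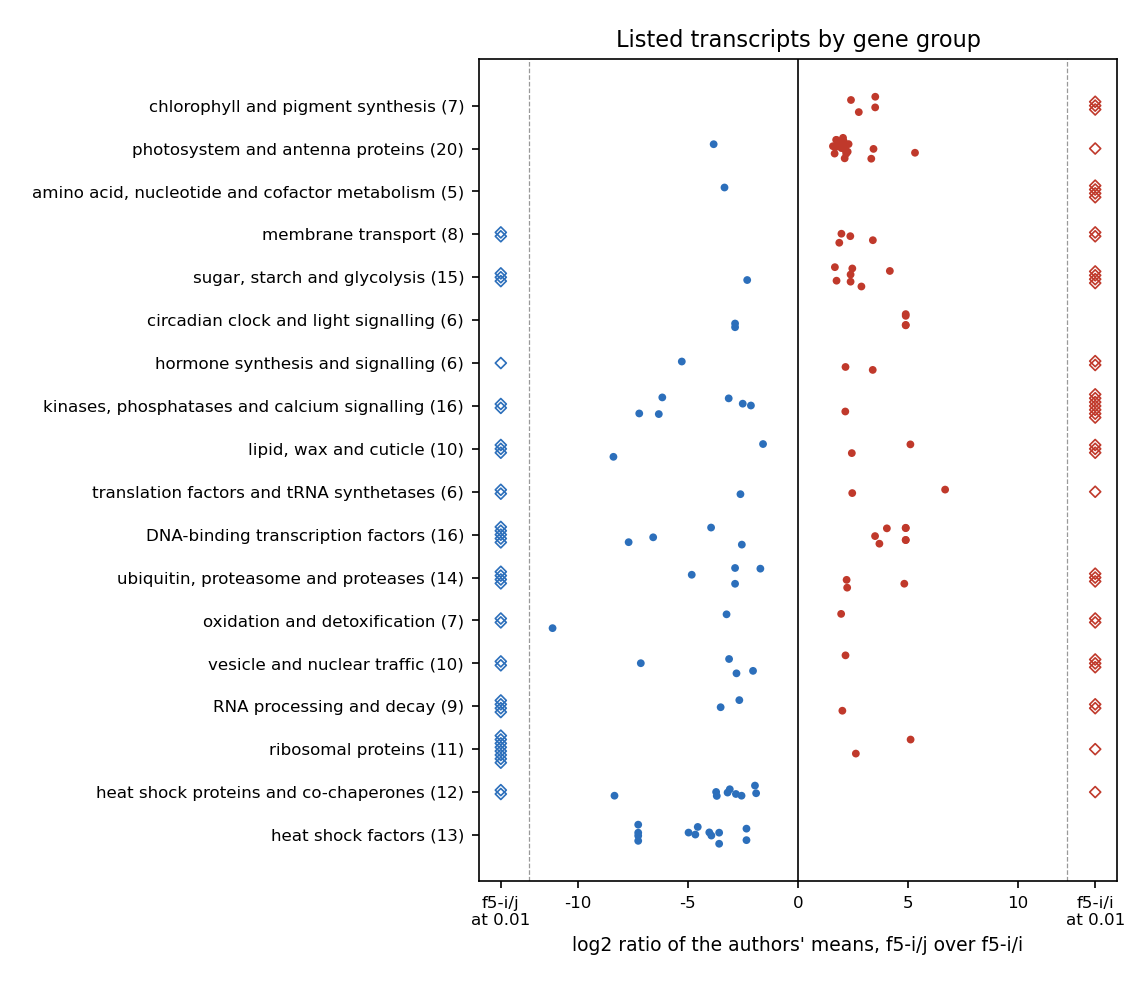
Log2 ratio of the authors' means, f5-i/j over f5-i/i, for each listed transcript of the 18 gene groups with at least 5 members (number in brackets), ordered from the highest to the lowest share higher in f5-i/j. Filled points have both means above 0.01, and open diamonds beyond the dashed lines stand for transcripts with a mean of 0.01 in f5-i/i (right) or f5-i/j (left), for which no ratio is given; only pigment synthesis lies wholly on the right and only heat shock factors wholly on the left.

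The Gene Ontology terms of the table overlapped with the gene groups and are not independent of them. Generation of precursor metabolites and energy had 10 transcripts, all higher in f5-i/j, and all 10 were in the photosystem and antenna group. Plastid had 13 higher and 1 lower, and intrinsic to membrane 14 higher and 4 lower. DNA-dependent transcription had 3 higher and 15 lower, and 9 of its 18 transcripts were heat shock factors. Response to stimulus had 1 higher and 8 lower. Its 9 transcripts, both directions together, included 4 heat shock factors and 4 members of the heat shock protein and co-chaperone group. Ribonucleoprotein complex had 2 higher and 9 lower, and all 9 lower ones were at 0.01 in f5-i/j. Response to stress was close to even, with 5 higher and 4 lower.

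Several models of 1 locus were listed at 39 loci, and at 12 of these some models were higher and others lower in f5-i/j. The exoribonuclease 2 locus LOC_Os09g07360 had model 1 at an authors' mean of 175 in f5-i/j, against 43.3 in f5-i/i (143 for f5-j/j), and model 2 at 10.5 in f5-i/j, against 120 in f5-i/i (65.2 for f5-j/j). The 2 models summed to 185 in f5-i/j, against 163 in f5-i/i, a ratio of 1.14, so the models differed more than the locus. At the dehydrogenase/reductase locus LOC_Os11g16410, model 3 had an authors' mean of 20.2 in f5-i/j, against 1.87 in f5-i/i (20.4 for f5-j/j), and model 4 had 2.47 in f5-i/j, against 18.6 in f5-i/i (2.52 for f5-j/j). There f5-i/j and f5-j/j had close means for both models, and the sums were 22.7 in f5-i/j, against 20.4 in f5-i/i.

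The Rab-7A locus LOC_Os06g38320, a regulator of traffic to the vacuole, had model 3 at an authors' mean of 61.0 in f5-i/j, against 13.7 in f5-i/i (55.1 for f5-j/j), and model 2 at 0.01 in f5-i/j, against 4.85 in f5-i/i (5.11 for f5-j/j). The cereblon locus LOC_Os05g44590 had model 2 at 25.2 in f5-i/j, against 4.12 in f5-i/i, and model 3 at 0.01 in f5-i/j, against 9.31 in f5-i/i, by the authors' means. Summed over listed models, 10 of the 12 loci were higher in f5-i/j and 2 were lower. Beside this, 55.0% of all 427 listed loci were higher when summed the same way. Some of the 10 sums were close to equal. Their ratios of f5-i/j to f5-i/i were 1.04 at LOC_Os02g52490, 1.11 at LOC_Os11g16410 and 1.14 at LOC_Os09g07360. Only listed models enter these sums. RSEM, one of the tools in the submitters' processing notes, divides reads between the models of a locus by estimation, and the part of that division in these values was not tested.

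**Figure D5:**
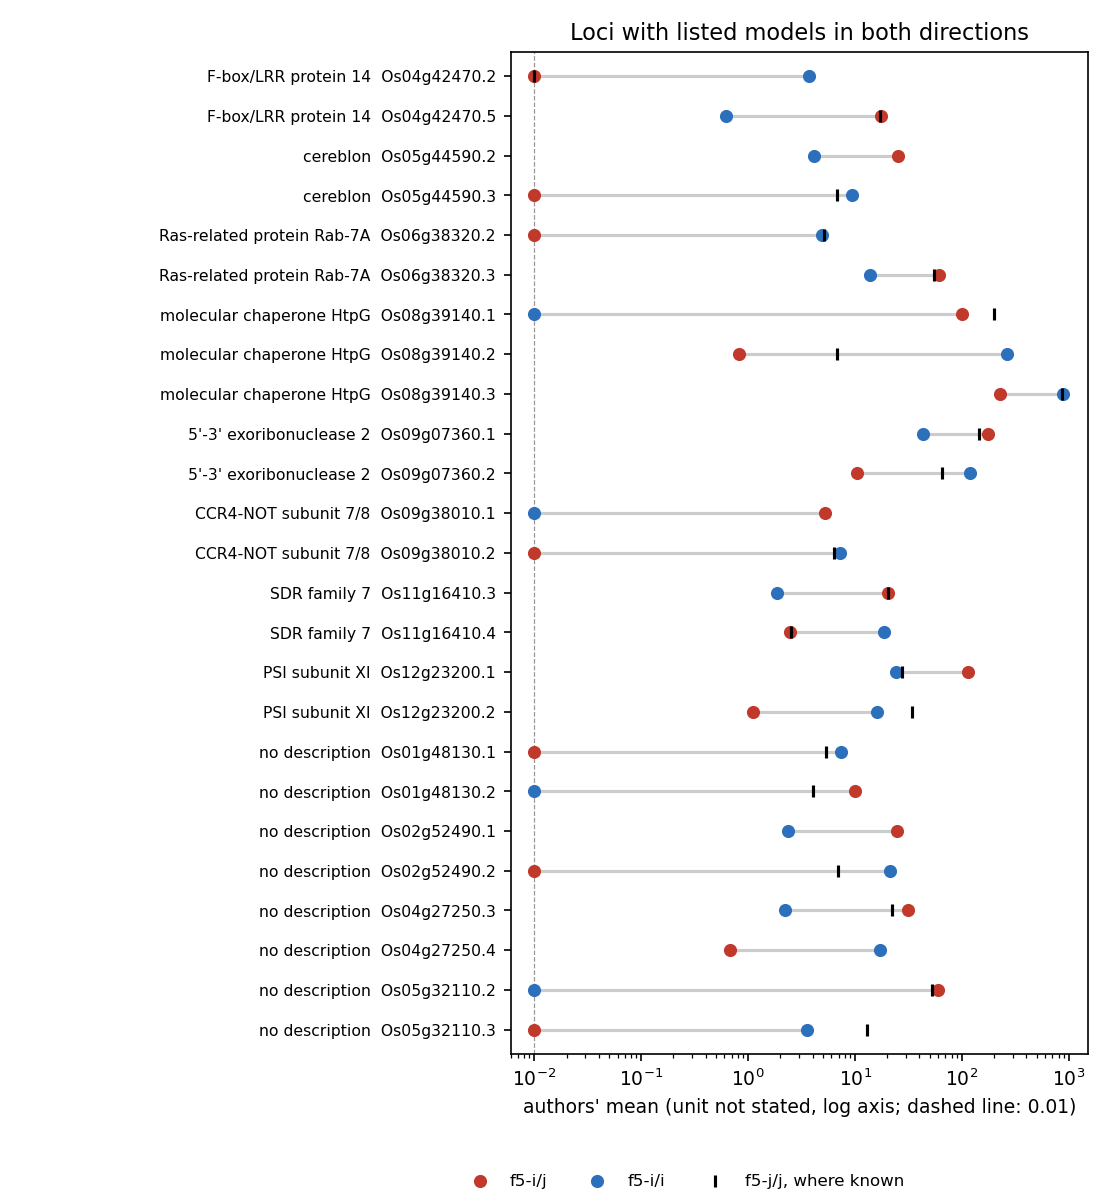
Authors' means in f5-i/j (red) and f5-i/i (blue), and in f5-j/j (black bar) where known, on a log axis in a unit not stated, for each listed model of the 12 loci with models in both directions, 8 with a description and 4 without. At each locus at least 1 row has red right of blue and at least 1 has red left of blue, and the dashed line marks 0.01.

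Many listed transcripts had no name. Of the 480, 160 had no KEGG Orthology description, and 93 of these were higher in f5-i/j (58.1%). The highest f5-i/j mean of the whole list was one of them, LOC_Os01g15270.1, with an authors' mean of 397 in f5-i/j, against 102 in f5-i/i. LOC_Os11g44810.1 had 260.8 in f5-i/j, against 62.7 in f5-i/i (78.0 for f5-j/j), by the authors' means. Among those lower in f5-i/j, LOC_Os02g55710.1 was at 0.01 there, with an authors' mean of 162 in f5-i/i (92.9 for f5-j/j), and LOC_Os08g40910.1 had 1.43 in f5-i/j, against 117 in f5-i/i (28.6 for f5-j/j).

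Listed loci lay on all 12 chromosomes, from 18 loci on chromosome 9 to 63 on chromosome 1. The share higher in f5-i/j ran from 40.0% of 40 transcripts on chromosome 6 to 61.5% of 39 on chromosome 5. The median coding length was 856.5 bases for transcripts higher in f5-i/j and 900 bases for those lower.

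Markers of reproductive tissue were nearly absent from the list, which holds only transcripts that passed the authors' filter and so cannot check the labelled tissue. None of 11 floral-organ MADS loci was listed, and 1 of 14 loci from a tapetum and pollen wall list was, LOC_Os08g38810, with an authors' mean of 21.4 in f5-i/j, against 0.01 in both homozygotes. A second locus of that list, LOC_Os11g37280, was known from the other tables and differed little, with authors' means of 34.05 in f5-i/j, against 33.8 in f5-i/i (0.413 for f5-j/j). Green-tissue transcripts, in contrast, were the photosystem, antenna and pigment members described above, 26 of 27 higher in f5-i/j. The part of tissue composition in these differences was not tested.

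Values just inside the filter and for some transcripts outside it are given here. The lowest probability in the authors' deposited table belonged to LOC_Os02g14290.2, which had an authors' mean of 15.96 in f5-i/j, against 2.24 in f5-i/i. Outside the list, 89 transcripts had both means known from the other deposited tables. All of these had been listed as different in f5-j/j from both other genotypes, which favours similar f5-i/j and f5-i/i means. They therefore do not show where the filter cut. For the 58 above 0.01 in both genotypes the larger mean was 1.47 times the smaller at the median. The largest ratio among them was 4.51, for LOC_Os05g45930.2, with authors' means of 4.32 in f5-i/j, against 19.5 in f5-i/i.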

How the data were processed

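Spikelet RNA of 3 samples per genotype was sequenced by the authors, and the submitters' processing notes name the tools BWA, Bowtie and RSEM with no version or role. The deposited table is a filtered list and not the full set of tested transcripts. Per the file headers, each deposited value is a mean signal of a genotype, computed by the authors. Its unit and normalization, and the genome build, were not given in the sources used. The deposited log2 ratio equals the log2 of the 2 means, checked by recomputing it, and the deposited probability is a score of at least 0.8 and not a p-value. The coding length deposited by the authors was a multiple of 3 for 100% of transcripts. Columns were tied to genotypes through the names of the tables, and means of a genotype recurred between tables without difference. The log2 ratio was recomputed from the means as f5-i/j over f5-i/i, and left out where a mean was 0.01.

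Transcripts were put into 27 gene groups by words in the best KEGG Orthology match with an e-value of at most 1e-20, and 25 groups had a member. A transcript could belong to several groups. Words such as DnaJ B11 or PsbW under weaker matches did not count. The match names come from other organisms in part. RefSeq names (assembly ASM3414082v1) were used where the best match carried a rice gene identifier on the same chromosome, which held for 41 transcripts. Genes were named for the largest ratios, the largest differences, membership of a gene group, or models going both ways. Further group members, transcripts outside the groups and those without a description were chosen after their values were seen. The members, lists and rules were chosen with earlier results of these data known. Without values of single samples no test was run, and depth, SD and n per value are unknown. The classification was tested on simulated data. Python 3.11.15, pandas 2.3.3, numpy 2.4.6, scipy 1.17.1 and matplotlib 3.10.9 were used.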

Additional observations from a re-analysis of the deposited data

How the results depend on the processing

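No paired analysis was possible because the deposited tables hold genotype means and no value of a single sample, and for the same reason no sample could be left out. Where the probability in the authors' deposited table reached 0.9, 49 transcripts were higher and 63 lower in f5-i/j (43.8% higher), and the median fold of the 17 above 0.01 was 153, against 7.12 over the whole list. Large ratios tended to carry high probabilities. A log2 ratio of -8.34 had a probability of 0.982 (LOC_Os08g39140.2), and one of -1.59 had 0.801 (LOC_Os02g01980.1). Both of these had a mean above 100 in f5-i/i. With low means a large ratio could lie near the limit. The log2 ratio of -7.69 of LOC_Os07g04700.6 had 0.820, with authors' means of 0.02 in f5-i/j, against 4.14 in f5-i/i. At the limit of 0.9 the share higher was 100% for photosystem, hormone, sugar and starch, and amino acid transcripts, and 0% for transcription factors and membrane transport, each from 1 or 2 transcripts. Without transcripts at 0.01 in 1 genotype, 140 were higher and 112 lower, since fewer transcripts were counted. The share higher then was 0% for chaperones and for amino acid metabolism, 100% for membrane transport and for ribosomal proteins, and 14.3% for kinases, against 50% with all of them; the kinase share rests on 7 transcripts and the ribosomal one on 2. Counted as 1 transcript per locus or summed per locus, the share was 100% for photosystem proteins and 0% for chaperones. Of 160 alternative values over the 18 groups of at least 5 transcripts, 145 stayed within the 95% binomial interval of the share given above, an interval that covers counting of listed transcripts only. These intervals count models of a locus as separate and are wide, from 11.8% to 88.2% for translation factors. The alternatives also reuse the same transcripts, so staying inside does not measure stability. Heat shock factors were 0% higher and pigment synthesis 100% higher under every alternative that left any of them. For subsets or sums of the same transcripts no other share was possible, because every listed member went 1 way. Only a changed word search could have brought in other members. Depth is unknown, and the filter left out small differences of weakly expressed transcripts.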

Other observations

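No gene group covered lysine-specific demethylases, enzymes that remove methyl groups from histones. The 3 listed matches were lower in f5-i/j, beside 46.7% lower among all listed transcripts: LOC_Os09g31380.1 had authors' means of 4.31 in f5-i/j, against 30.6 in f5-i/i (4.59 for f5-j/j), LOC_Os08g39810.1 had 0.17 in f5-i/j, against 8.42 in f5-i/i (0.32 for f5-j/j), and LOC_Os01g35050.4 had 3.39 in f5-i/j, against 21.8 in f5-i/i (31.4 for f5-j/j). Both matches to the salicylic acid regulator NPR1 were at 0.01 in f5-i/j, with authors' means of 6.72 (LOC_Os01g72020.2) and 7.49 (LOC_Os03g46440.3) in f5-i/i. A subunit of the TRAPP vesicle tether, LOC_Os03g19560.1, was higher, with authors' means of 52.7 in f5-i/j, against 4.72 in f5-i/i (55.5 for f5-j/j). These transcripts were chosen after their values were seen.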
